A study of Mus musculus with 4 samples.

Results

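Transcripts named only after BC cDNA clones were followed in mouse embryonic stem cells that had lost Exosc3, which belongs to the RNA exosome's core. They were chosen by symbol, BC followed by digits, and selected on measured level: rows of the deposited gene table whose FPKM (fragments per kilobase of gene model, scaled to the depth of the library) averaged at least 0.5 over the 4 libraries. This chose 79 of the 22883 rows, with 76 different symbols. Of 230 rows with such a symbol, 57 were at 0 in every library and 94 were above 0 but under the mean of 0.5. Because the mean includes the depleted libraries, a low row can enter through a rise. The 68 rows that averaged at least 0.5 in the Exosc3-present libraries are therefore also given by themselves. This subset is set on the present level alone. It still holds rows with a depleted mean under 0.5, which entered only through the present libraries and so can only be lower. The Exosc3-depleted group had 2 libraries, from Exosc3 conditional knockout (CKO) cells taken off doxycycline for 3 days. The Exosc3-present group had 2 libraries, from the same kind of cells kept in doxycycline. Both groups came from CKO clones of the V6.5 line, grown without feeders, for which the doxycycline concentration was 0.1 μg/ml. Doxycycline and Exosc3 changed together, so their effects cannot be told apart, and how many clones were used is not given in the sources used here. Nothing in the labels tells if the replicates of a group were grown apart, so p-values measure only the spread between these samples, which may be technical.

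A symbol of this kind is the GenBank accession of a sequenced full-length cDNA clone. UCSC gene models carry it when no gene name had been given to the transcript, so such rows can be protein-coding genes, pseudogenes, noncoding RNAs or extra isoforms of named genes. The RNA exosome trims and degrades RNA from its 3′ end, and in embryonic stem cells it removes many short-lived nuclear transcripts, among them RNAs made upstream of promoters, at enhancers and by early termination. The libraries were ribosomal RNA-depleted total RNA, so transcripts without a poly(A) tail could also be counted.

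Exosc3 had 0.635 and 0.691 FPKM in Exosc3-depleted libraries, against 24.2 and 23.2 FPKM in Exosc3-present libraries, which matched the labels (log2 fold change -4.38, SE 0.18, limma adjusted p = 0.000129). The total by which FPKM had been scaled, recovered from the spacing of the values, was 38095698 and 41968325 fragments in Exosc3-depleted libraries, against 60851774 and 55233386 in Exosc3-present libraries. The median BC row held 106 and 147 fragments in Exosc3-depleted libraries, against 190 and 171 in Exosc3-present libraries, and the lowest value of any BC row was 6 fragments. Of 8 embryonic stem cell markers 6 had a row, and their summed level was 1953 and 1295 FPKM in Exosc3-depleted libraries, against 3072 and 3081 FPKM in Exosc3-present libraries, with 4 lower and 0 higher by the limma test. Fibroblast markers, for cells that could accompany a stem cell culture, summed over 8 rows to 11.9 and 8.88 FPKM in Exosc3-depleted libraries, against 6.48 and 7.24 FPKM in Exosc3-present libraries. Of 4 tested fibroblast markers 2 rose and 1 fell, while Postn and Lum were at 0 in every library. The part of these cell markers in the results below was not tested, and in bulk RNA fewer cells of a type and less RNA per cell cannot be told apart.

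Reference annotation of the GRCm38 assembly, a later build than the mm9 named in the submitters' processing notes, matched 15 of the 79 rows by symbol, 12 as protein-coding and 3 as pseudogenes. The other 64 rows are known here by accession only. BC003348 was matched through an older symbol, as a listed synonym of Sesn3. Sesn3 encodes sestrin 3, a stress-induced protein that restrains mTORC1. Of the rows that changed, those of Sesn3 and BC004004 had a promoter in the RefSeq table of GRCm38.p6, and both are printed as the reference starts of the genes to which these 2 changed clone rows were matched by name. The Sesn3 window is chr9:14276051-14276350 on the plus strand. The window of the first of 3 listed BC004004 starts is chr17:29268676-29268975 on the plus strand. Capitals mark the 50 bases from the start site on, and the lower-case letters are the 250 bases before it.
Sesn3 (BC003348): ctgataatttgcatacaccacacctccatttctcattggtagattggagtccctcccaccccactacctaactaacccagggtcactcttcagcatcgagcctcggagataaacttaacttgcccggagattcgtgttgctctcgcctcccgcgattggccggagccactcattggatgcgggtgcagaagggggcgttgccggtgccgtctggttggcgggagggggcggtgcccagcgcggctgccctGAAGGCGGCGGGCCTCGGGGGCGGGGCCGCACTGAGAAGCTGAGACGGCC
BC004004: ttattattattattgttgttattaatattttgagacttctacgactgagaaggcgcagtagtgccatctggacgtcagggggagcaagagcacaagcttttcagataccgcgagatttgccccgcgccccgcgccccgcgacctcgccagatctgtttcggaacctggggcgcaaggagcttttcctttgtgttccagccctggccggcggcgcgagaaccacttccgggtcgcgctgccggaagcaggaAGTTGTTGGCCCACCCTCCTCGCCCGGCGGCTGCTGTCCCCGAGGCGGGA
The deposited table gives no coordinates, so where the clone rows start relative to these windows was not determined.

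As a group, BC rows went both ways after loss of Exosc3. Of the 79 rows, 17 were called higher and 14 lower in Exosc3-depleted cells at a Benjamini-Hochberg adjusted p under 0.05 by limma on log2(FPKM + 0.5), and 48 did not pass. These are 21.5% and 17.7% of the rows, beside 12.6% called higher and 30.1% called lower among all 9336 tested rows. The higher share includes rows that entered through their rise. Among the 68 rows with an Exosc3-present mean of at least 0.5, 8 were higher and 14 lower, or 11.8% and 20.6%, beside 9.28% and 31.5% of the 8912 tested rows at that level. The median log2 fold change was -0.03 over the 79 rows against -0.27 over all tested rows, and -0.12 over the 68, against -0.31 over tested rows at that level. Both depleted libraries lay above both present ones in 30 BC rows and below them in 31, that is in 38.0% and 39.2% of rows, beside 22.2% and 50.9% of all tested rows. The 11 rows with a present mean under 0.5 were all among the 30. For such rows the filter fixes which mean is higher but not the lack of overlap. Of coding rows in that class, 93.2% had both depleted libraries above both present ones. Among the 68 rows there were 19 above and 31 below, or 27.9% and 45.6%, beside 18.8% and 53.3% of tested rows at that level.

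These counts moved with single libraries and with scaling. Without Exosc3-present replicate 1, 8 rows were higher and 7 lower, beside 7.19% and 14.6% of all tested rows in the same fit. Without Exosc3-present replicate 2, 9 were higher and 3 lower, beside 7.16% and 11.6%. Without Exosc3-depleted replicate 1, the counts were 27 higher and 24 lower, beside 23.4% and 40.6%, and without Exosc3-depleted replicate 2 they were 22 and 24, beside 17.3% and 50.5%. The background shares thus moved with the libraries as well. The depleted pair differed more than the present pair, both among BC rows (SD of the log2 difference 0.41 for the depleted and 0.18 for the present pair) and among all tested rows (0.43 and 0.19). Median-of-ratios scaling moved the median of all tested rows from -0.27 to 0.01. It gave 27 BC rows higher and 8 lower, beside 18.8% and 17% of all rows, so that 77.1% of called BC rows were higher in place of 54.8%. The difference between the BC median and the median of all tested rows was 0.23 as deposited, 0.21 with median-of-ratios scaling and 0.23 with quantile normalization. That of the 68 rows to the same median was smaller, at 0.15 as deposited, 0.16 with median-of-ratios scaling and 0.13 with quantile normalization. The median of all tested rows also covers rows with a present mean under 0.5. As deposited, the median of the 68 was -0.12, against -0.31 for tested rows at their level.

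As deposited, the summed level of the 79 rows was 349 and 347 FPKM in Exosc3-depleted libraries, against 359 and 367 FPKM in Exosc3-present libraries. Divided by the median-of-ratios factor of each library, a step added after seeing the data, the sums were 416 and 363 in Exosc3-depleted libraries, against 330.0 and 320 in Exosc3-present libraries. The order of the groups thus turned with the scaling.

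**Figure D1:**
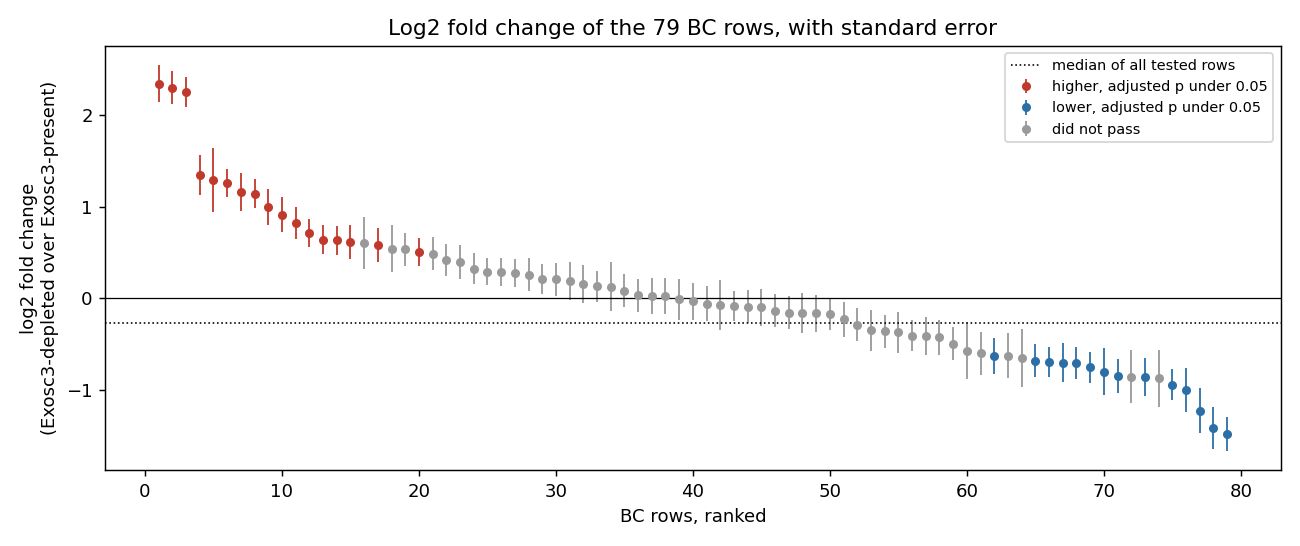
Log2 fold change (Exosc3-depleted over Exosc3-present, vertical axis) of the 79 BC rows in order of size (horizontal axis), with bars for the standard error and colours for the limma call. BC033916, BC029726 and BC099561, at 2.34, 2.30 and 2.25, stand above the next row, BC029214, at 1.34.

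The largest rise was that of BC033916 (uc008bzy.1), which had 27.0 and 22.2 FPKM in Exosc3-depleted libraries, against 4.93 and 3.97 FPKM in Exosc3-present libraries. Its groups were far apart, and the depleted mean was 5.53 times the present mean (log2 fold change 2.34, SE 0.20, limma adjusted p = 0.000391). It rests on 829 and 752 fragments in Exosc3-depleted libraries, against 242 and 177 in Exosc3-present libraries. It was the fifth-highest of the BC rows by mean over all libraries, which includes its rise. Its mean in Exosc3-present libraries was 4.45 FPKM.

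BC029726 (uc009csd.1) had 5.24 and 5.22 FPKM in Exosc3-depleted libraries, against 0.744 and 0.595 FPKM in Exosc3-present libraries. The depleted replicates agreed closely and the ratio of means was 7.81 (log2 fold change 2.30, SE 0.18, limma adjusted p = 0.000331). BC099561 (uc009bkd.1) had 2.60 and 2.81 FPKM in Exosc3-depleted libraries, against 0.132 and 0.218 FPKM in Exosc3-present libraries. It had the largest ratio of means among BC rows, 15.4, on 74 and 88 fragments in Exosc3-depleted libraries, against 6 and 9 in Exosc3-present libraries (log2 fold change 2.25, SE 0.17, limma adjusted p = 0.00029). The pseudocount of 0.5 understates such a change, and with limma-voom on recovered fragments its log2 fold change was 3.92. None of these 3 rows had a match in the annotation.

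Of the next 7 rises, 4 had an Exosc3-present mean under 0.5 FPKM. BC029214 had 2.85 and 2.49 FPKM in Exosc3-depleted libraries, against 0.978 and 0.557 FPKM in Exosc3-present libraries (log2 1.34). BC044868 had 1.46 and 1.44 FPKM in Exosc3-depleted libraries, against 0.348 and 0.283 FPKM in Exosc3-present libraries (log2 1.26), and its groups were widely separated. BC031353, on the longest model among the rising rows at 4178 bases, had 1.34 and 2.02 FPKM in Exosc3-depleted libraries, against 0.382 and 0.555 FPKM in Exosc3-present libraries (log2 1.16). BC020402 had 1.03 and 1.10 FPKM in Exosc3-depleted libraries, against 0.165 and 0.257 FPKM in Exosc3-present libraries (log2 1.14). The replicates of BC020402 agreed within each group, and lack of overlap between groups was a condition for naming these rises. BC026585 had 4.68 and 3.86 FPKM in Exosc3-depleted libraries, against 2.03 and 1.76 FPKM in Exosc3-present libraries (log2 0.99). BC044745 had 1.75 and 1.31 FPKM in Exosc3-depleted libraries, against 0.483 and 0.674 FPKM in Exosc3-present libraries (log2 0.91). Leaving aside BC003348, which is given below, the limma adjusted p of these rows lay between 0.00127 for BC044868 and 0.0092 for BC044745. BC026585 did not pass without Exosc3-present replicate 1 (limma adjusted p = 0.0591) or replicate 2 (0.134), nor BC044745 without Exosc3-present replicate 1 (0.118).

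BC003348, the clone row that RefSeq lists under Sesn3, had 0.648 and 2.02 FPKM in Exosc3-depleted libraries, against 0.287 and 0.120 FPKM in Exosc3-present libraries. The depleted replicates differed widely (log2 fold change 1.28, SE 0.35, limma adjusted p = 0.024). Sesn3 itself has a row of its own, with 5.30 and 10.5 FPKM in Exosc3-depleted libraries, against 2.07 and 1.88 FPKM in Exosc3-present libraries (log2 1.69, SE 0.31, limma adjusted p = 0.00531). Both rows were higher in depleted replicate 2 than in depleted replicate 1. How the authors shared fragments between overlapping models is not given in the sources used here, so whether these rows share fragments was not determined.

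The remaining rises were smaller. BC037703 had 2.01 and 1.94 FPKM in Exosc3-depleted libraries, against 0.808 and 0.997 FPKM in Exosc3-present libraries (log2 0.82). BC004004, the protein-coding gene whose promoter is printed above, had 10.6 and 8.84 FPKM in Exosc3-depleted libraries, against 6.43 and 6.15 FPKM in Exosc3-present libraries (log2 fold change 0.58, SE 0.19, limma adjusted p = 0.0417). Besides BC003348 it was the only row with an annotation match to be called higher, and it did not pass without either Exosc3-present replicate. BC042727 (log2 0.71), BC062254 (0.64), BC038328 (0.63), BC145649 (0.62) and BC100427 (0.51) rose to depleted means between 0.771 FPKM for BC100427 and 1.27 FPKM for BC062254. Each of these 5, and BC037703, lost its call when either Exosc3-present replicate was left out. BC100427 also missed the threshold with no intensity trend (limma adjusted p = 0.05001) and with limma-voom (0.0598).

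**Figure D2:**
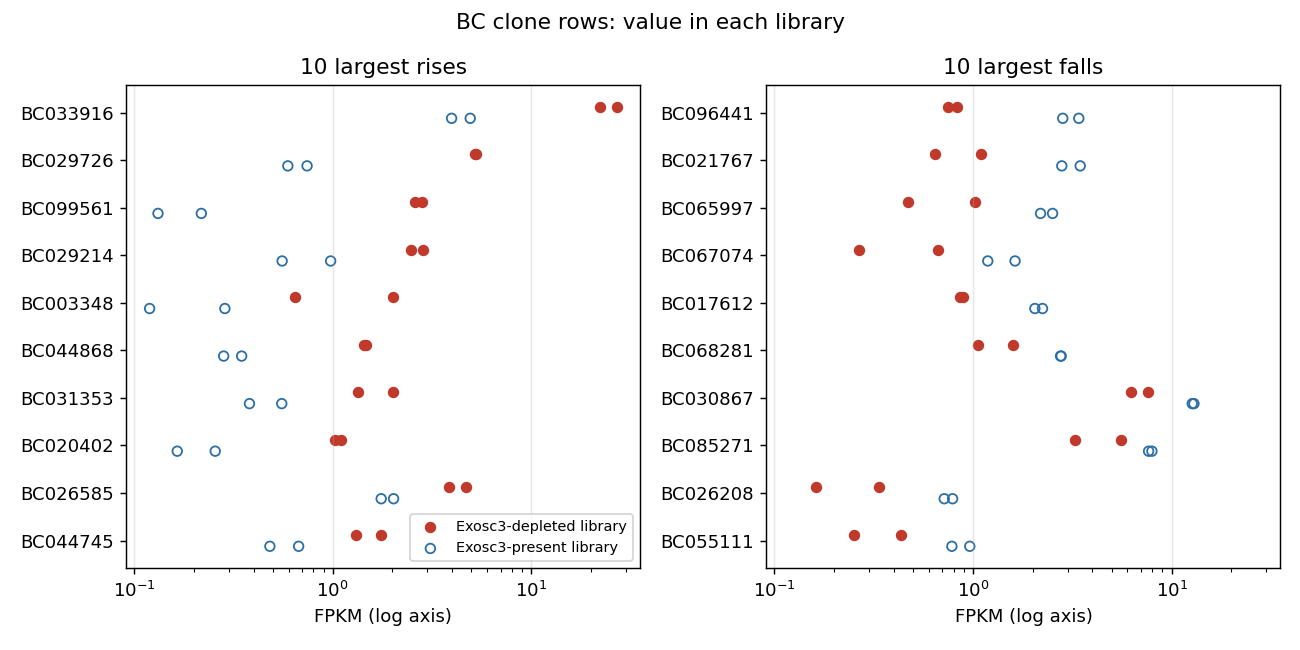
FPKM in each library (log axis) of the 10 largest rises and the 10 largest falls among BC rows that passed the limma test, with filled points for Exosc3-depleted and open points for Exosc3-present libraries. The rows were chosen to have no overlap between groups, and BC099561 is the furthest apart, at 2.60 and 2.81 FPKM in Exosc3-depleted libraries and 0.132 and 0.218 FPKM in Exosc3-present libraries.

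Of the 79 rows, 11 had an Exosc3-present mean under 0.5 and so could enter only by being higher in depleted cells. In that class 9 were called higher and none lower, which the rule fixes in direction. Besides the rows given above these were BC005764, with 0.987 and 0.663 FPKM in Exosc3-depleted libraries, against 0.487 and 0.484 FPKM in Exosc3-present libraries (log2 0.42, limma adjusted p = 0.0963), and 1 of the BC056163 rows (uc008ogl.1; log2 0.29, limma adjusted p = 0.151). Coding rows that entered in the same way were called higher in 252 of 311 cases, with a median log2 fold change of 1.07, against 0.71 for the 11 BC rows. At the edge of the threshold, BC026208 (mean 0.501 FPKM) and BC100427 (0.582) were just inside, and BC034090 (0.462) and BC025920 (0.446) were just outside.

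The largest falls were smaller on the log2 scale than the largest rises. BC096441 (uc007jrh.2) had 0.836 and 0.748 FPKM in Exosc3-depleted libraries, against 3.41 and 2.83 FPKM in Exosc3-present libraries. The groups were well apart, and the present mean was 3.94 times the depleted mean (log2 fold change -1.48, SE 0.18, limma adjusted p = 0.00128). BC021767 (uc008qgw.1), annotated as a transcribed pseudogene, had 0.648 and 1.10 FPKM in Exosc3-depleted libraries, against 2.80 and 3.47 FPKM in Exosc3-present libraries (log2 fold change -1.42, SE 0.23, limma adjusted p = 0.00318). BC065997 had 0.472 and 1.02 FPKM in Exosc3-depleted libraries, against 2.52 and 2.19 FPKM in Exosc3-present libraries (log2 fold change -1.23, SE 0.24, limma adjusted p = 0.00732). In BC021767 and BC065997 depleted replicate 1 was the lower of the pair.

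Of the 12 coding rows, 2 were called lower, or 16.7%, beside 30.8% of coding rows without a BC symbol. Another 2 were called higher, or 16.7%, beside 11.1%. A log2 fold change below 0 was found in 8 of the 12, beside 5962 of the 8764 coding rows without a BC symbol. BC067074 had 0.266 and 0.671 FPKM in Exosc3-depleted libraries, against 1.19 and 1.63 FPKM in Exosc3-present libraries (present mean 3.01 times the depleted mean, limma adjusted p = 0.0156). Its depleted mean was 0.468 FPKM, under 0.5, so it entered only through the Exosc3-present libraries and the filter fixed its direction. BC030867 had 7.63 and 6.25 FPKM in Exosc3-depleted libraries, against 12.7 and 13.0 FPKM in Exosc3-present libraries (log2 -0.85, limma adjusted p = 0.0108). BC085271, annotated as a pseudogene, had 3.26 and 5.54 FPKM in Exosc3-depleted libraries, against 7.67 and 7.97 FPKM in Exosc3-present libraries (log2 -0.80, limma adjusted p = 0.0407). BC030867 and BC085271 missed the threshold with median-of-ratios scaling (limma adjusted p = 0.0832 for BC030867 and 0.109 for BC085271), with quantile normalization, and without either Exosc3-present replicate. BC067074 missed it without Exosc3-present replicate 2 (0.0524).

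Unmatched rows made up the rest of the falls. BC017612 had 0.889 and 0.857 FPKM in Exosc3-depleted libraries, against 2.05 and 2.24 FPKM in Exosc3-present libraries (log2 -0.95), and BC068281 had 1.06 and 1.59 FPKM in Exosc3-depleted libraries, against 2.78 and 2.76 FPKM in Exosc3-present libraries (log2 -0.86). BC026208 (log2 -0.75) and BC055111 (-0.71) fell to depleted means of 0.249 and 0.344 FPKM, against present means of 0.754 and 0.875 FPKM, on 9 to 36 fragments in single depleted libraries. With depleted means under 0.5 FPKM, both rows entered only through the Exosc3-present libraries, so the filter fixed their direction. BC048731 (-0.70), BC141885 (-0.70), BC053749 (-0.68) and BC031781 (-0.63) were the smallest falls to pass, and each of these 4 missed the threshold with median-of-ratios scaling and without either Exosc3-present replicate. Without Exosc3-present replicate 2 the limma adjusted p was 0.0774 for BC017612, 0.125 for BC068281, 0.0645 for BC026208 and 0.144 for BC055111. Without Exosc3-present replicate 1 it was 0.115 for BC068281.

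Among the rows with the highest levels, 3 that did not pass are given here. BC056474, the highest, had 42.7 and 29.2 FPKM in Exosc3-depleted libraries, against 36.7 and 42.6 FPKM in Exosc3-present libraries, and its groups overlapped (log2 fold change -0.16, SE 0.22, limma adjusted p = 0.591). That value rests on the depleted pair: without Exosc3-depleted replicate 1 it was -0.43 (limma adjusted p = 0.0269), and without Exosc3-depleted replicate 2 it was 0.11. BC002163, annotated as a processed pseudogene, had 25.8 and 22.9 FPKM in Exosc3-depleted libraries, against 31.1 and 34.0 FPKM in Exosc3-present libraries (log2 -0.41, limma adjusted p = 0.0936). Processed pseudogenes resemble their parent gene, so its fragments may be shared with another locus. BC031181, a coding gene, had 17.9 and 15.5 FPKM in Exosc3-depleted libraries, against 19.4 and 17.2 FPKM in Exosc3-present libraries (log2 -0.14, limma adjusted p = 0.575). None of these 3 passed with all libraries, which does not show that they were unchanged. Among coding rows of like level their log2 fold changes stood above the middle, at percentiles from 57.5 for BC002163 to 79.1 for BC056474.

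Each BC row was set among the coding rows from 20% below to 25% above its mean level in Exosc3-present cells, a window of 33 to 979 rows with a median of 801. The median percentile of the 79 rows was 58.5, with 46 above the middle of their window and 33 below it. Among the 68 rows with a present mean of at least 0.5 the median percentile was 59.2, with 39 above and 29 below. Coding rows in the windows of these 68 were called higher in 11.4% and lower in 25.7% of cases on average, against 11.8% and 20.6% of the BC rows. BC rows thus lay near coding genes of like level, and set without any window the median percentile was 66.1. The percentile within windows was 52.3 without Exosc3-depleted replicate 1. Above the 90th percentile of their windows were 7 BC rows, led by BC033916 (99.4), BC029726 (99.2) and BC029214 (95.4), and 4 lay under the 10th, with BC096441 and BC021767 lowest at 3.38. BC099561, by contrast, was at 78.8 in a window of 33 rows that all began low and had themselves entered through a rise. Of the other largest rises with a present mean under 0.5, BC031353 was at 84.7 and BC044868 at 69.3. BC003348 was at 32.6 and BC020402 at 25, in windows where every coding row was called higher.

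**Figure D3:**
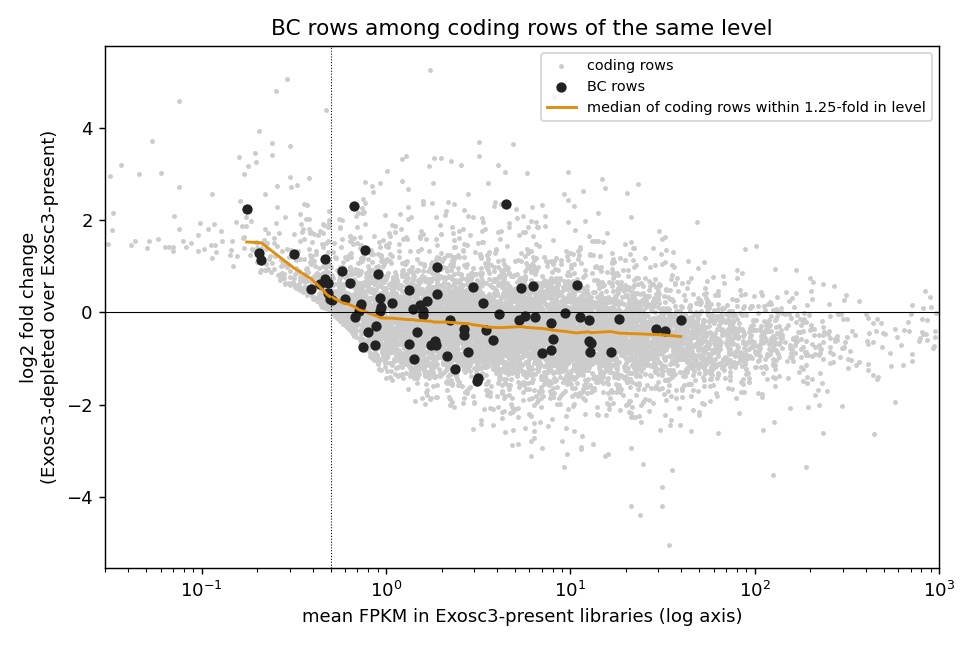
Log2 fold change (Exosc3-depleted over Exosc3-present, vertical axis) against mean FPKM in Exosc3-present libraries (horizontal log axis) for BC rows (black) and coding rows (grey; those beyond the axis are not drawn), with the median of the coding rows in each BC row's window of like level as a line. BC033916 and BC029726 lie far above the line, and left of the dotted line at 0.5 FPKM both kinds of row are positive because of the filter on the mean.

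The same rows were also read by level class. From 0.5 to 1 FPKM in Exosc3-present cells, 18 BC rows had a median log2 fold change of 0.16, against 0.07 for 833 coding rows. From 1 to 2 FPKM, 15 BC rows had a median of 0.03, against -0.16 for 1214 coding rows, and from 2 to 5 FPKM, 14 BC rows had -0.43, against -0.28 for 1966 coding rows. At 5 FPKM and over, 21 BC rows had a median of -0.17, against -0.44 for 4440 coding rows. In that highest class 3 BC rows (14.3%) were called lower, against 39.4% of coding rows, and 1 (4.76%) was called higher, against 5.83%. The class from 2 to 5 FPKM went the other way, with 5 BC rows (35.7%) called lower, against 26.8% of coding rows. From 0.5 to 1 FPKM 11.1% of BC rows were called lower, against 11.8%, and from 1 to 2 FPKM 26.7%, against 27.2%. The BC median was thus above the coding median in 3 of these 4 classes and below it in the class from 2 to 5 FPKM.

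**Figure D4:**
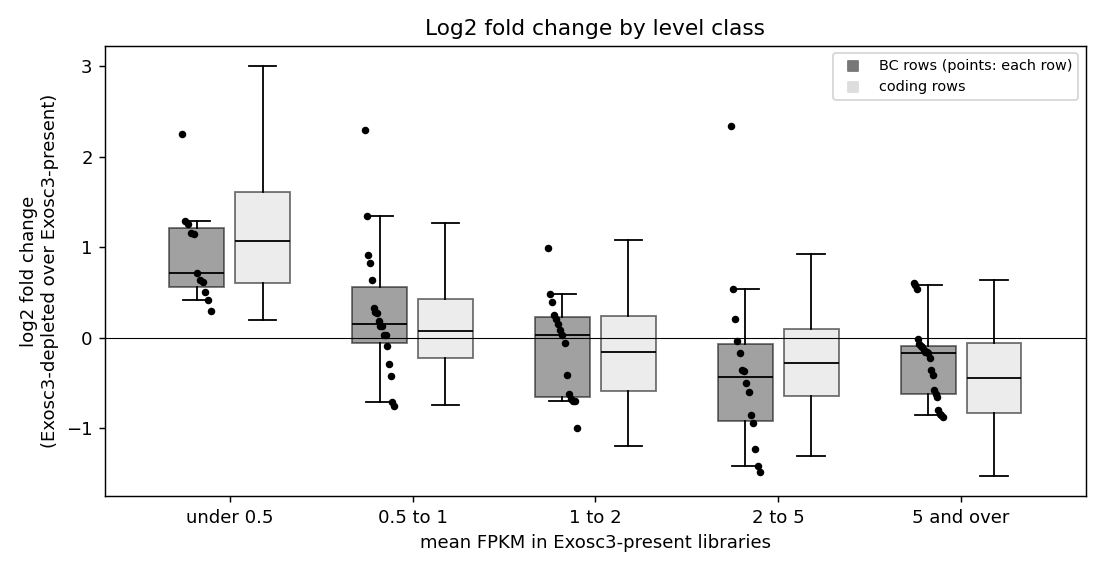
Log2 fold change (vertical axis) of BC rows (dark boxes, with a point for each row) and coding rows (light boxes) by mean FPKM in Exosc3-present libraries (horizontal axis); boxes span the quartiles around the median line and whiskers the 5th to 95th percentiles. The boxes overlap in every class, and the highest points in the classes 0.5 to 1 and 2 to 5 are BC029726 and BC033916.

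Rows with and without an annotation match differed in level, with a median present mean of 1.501 FPKM in the 64 unmatched and 6.29 FPKM in the 15 matched rows. The unmatched rows had a median log2 fold change of 0.03, with 15 higher (23.4%) and 10 lower (15.6%), and the matched rows had -0.14, with 2 higher (13.3%) and 4 lower (26.7%), beside 12.6% and 30.1% of all tested rows. With a present mean of at least 0.5, the 54 unmatched rows had a median of -0.09, with 7 higher (13.0%) and 10 lower (18.5%), beside 9.28% and 31.5% of tested rows at that level. AK clone rows, the other large class of accession-named models, had 91 higher (41.4%) and 44 lower (20%) of 220 tested, with a median of 0.20. At a present mean of at least 0.5 they had 44 higher and 44 lower of 170 (25.9% each), with a median of -0.11. Annotated noncoding rows had 55 higher (58.5%) and 14 lower (14.9%) of 94, with a median of 0.87. These 94 can include rows that entered through a rise, and they were not split by present mean. These are counts beside each other, and no test of a difference between the classes was made.

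Model lengths recovered from the spacing of the FPKM values ran from 428 to 7672 bases in BC rows, with a median of 1630 bases, against 2494 bases over all tested rows. The shortest length that gave whole fragments in the libraries was taken. A true length, and the fragments with it, can therefore be a multiple of the value given. Of 15 matched rows, 6 had a recovered length within 10 bases of a transcript of that gene in GENCODE M21. The 17 higher rows had a median length of 1170 bases, the 14 lower rows 2215 bases and the 48 rows that did not pass 1658 bases. The higher and lower rows also differed in level, with median present means of 0.483 and 2.25 FPKM. Across the 79 rows Spearman's rho between log2 fold change and length was -0.23, beside 0.02 over all tested rows. Between log2 fold change and present level it was -0.53 across the 79 rows. The value for present level shares the present libraries on both sides and includes the rows that entered through a rise.

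BC056163 occurs in 3 member rows and BC085231 in 2. The BC056163 rows all had a recovered length of 1271 bases and log2 fold changes of 0.28, 0.29 and 0.21, and the BC085231 rows had 0.08 and 0.13. How fragments were divided between rows of 1 symbol is not given in the sources used here, so their values are uncertain and they are not counted as separate genes. None of the 5 rows passed the limma test. Keeping 1 row per symbol therefore could not change the counts of 17 higher and 14 lower, and is no check on the repeats.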

How the data were processed

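Total RNA was made into stranded, ribosomal RNA-depleted, paired-end libraries, per the labels' protocols. The authors deposited a single table of FPKM values, with 22883 UCSC gene models as rows and a column for each of 4 libraries. Tools named in the submitters' processing notes are STAR, Bowtie2, edgeR, bedtools and Picard, and the build is mm9; no role is given for any of them, and the counting rule is not given in the sources used here. Columns were mapped to samples by their names.

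Rows averaging 0.5 FPKM or more (9336) were tested together on the log2(FPKM + 0.5) scale, two-sided, with limma 3.58.1 under R 4.3.3 and its variance trend. Adjustment was by Benjamini-Hochberg over all of them, at a threshold of 0.05. Fold changes are on that scale and understate low rows. Fragments, totals and lengths were worked out from the steps between FPKM values (tolerance 0.004 of a fragment) for all 15471 rows above 0, and served depth, lengths and limma-voom. The procedures were tested on simulated data. Symbols were matched to RefSeq GRCm38.p6 and GENCODE M21 (95.6% of tested rows).

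Named rows are the 10 largest rises and 10 largest falls that passed the test without overlap between groups, the 5 highest, those with a present mean under 0.5, the 2 on each side of the threshold and the 3 highest that did not pass. A row that this rule names is not reported here. Others were chosen after their values were seen. The members and lists were chosen with earlier results of these data known. Alternatives covered pseudocount, filter, scaling, trend, window, replicate block and each library left out.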

Additional observations from a re-analysis of the deposited data

How the results depend on the processing

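Of the 31 called BC rows, 8 of 17 higher and 3 of 14 lower passed in each of 12 fits on the same rows: BC033916, BC029726, BC099561, BC029214, BC003348, BC044868, BC031353 and BC020402 upward, and BC096441, BC021767 and BC065997 downward. Of the 8 rises, BC099561, BC003348, BC044868, BC031353 and BC020402 had a present mean under 0.5 and were tested only through their depleted values, so their direction was fixed by the filter. Leaving out each library in turn gave 8 to 27 rows higher and 3 to 24 lower, or 3 to 17 higher and 3 to 24 lower among rows with an Exosc3-present mean of at least 0.5, beside 4.36% to 20% higher and 12.1% to 52.9% lower of all tested rows at that level. The median log2 fold change of the BC rows at that level ran from -0.20 to -0.10, and the median percentile among coding rows ran from 52.3 to 61.1. Where 1 library is left in a group, it is assumed to vary like the other group. With median-of-ratios scaling the counts were 27 higher and 8 lower (16 and 8 at a present mean of at least 0.5, beside 15.4% and 17.8%), and the medians 0.22 and 0.17; with quantile normalization the medians were 0.18 and 0.078. Median-of-ratios scaling multiplies every row of a library by 1 factor, higher in the depleted libraries. Under these scalings the sign turned for BC031181 (0.18 with each) and BC056474 (0.16 with median-of-ratios and 0.21 with quantile), and BC056474 was also at 0.11 without Exosc3-depleted replicate 2. Neither had passed with all libraries, and BC056474 passed at -0.43 without Exosc3-depleted replicate 1. With no filter 31 of 173 BC rows were higher and 17 lower (beside 11.3% and 18.7% of 15471 rows). With a filter at a mean of 2 there were 5 and 7 of 35 (beside 10% and 33.5%) and a median of -0.16. With a filter on the present mean 8 of 69 were higher and 16 lower (beside 9.01% and 32.1%). These fits test other rows. Comparing with all coding rows gave a median percentile of 66.1.

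The replicate numbers are not said to mark a shared batch. Same-numbered libraries deviated together (correlation 0.24), which with 2 pairs does not establish pairing. With the replicate block 21 BC rows were higher and 21 lower, beside 15.3% and 37.1% of all tested rows, and 12 and 21 at a present mean of at least 0.5, beside 11.9% and 38.9%. Low rows rest on few fragments: BC099561 had 6 and 9 in the Exosc3-present libraries.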
